A study of Mus musculus with 10 samples.

Results

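The genes described here are 36 genes of the cell division cycle, taken by symbol from the 56980 gene identifiers in the deposited table. They comprise 19 genes of G1/S and DNA replication, 16 genes of G2 and mitosis, and Cdkn1a, which encodes the CDK inhibitor p21. Each symbol stood on a single identifier, and all 36 genes passed the filter on low counts. RNA-seq was done on 10 libraries of mouse macrophages. Of these, 5 came from animals labelled JAMLWT with the genotype WT (WT here) and 5 from animals labelled JAMLMKO with the genotype JAML Knockdown (KO here), Jaml being the gene of a junctional adhesion molecule. The cells of both genotypes had been given lipopolysaccharide (LPS) at 100 ng/ml over 8 h and then ATP at 5 mM over 30 min, so no unstimulated cells enter any comparison. Strain, age, Cre line, tissue of origin and any pooling of animals were not stated in the sources used here. No label ties a library to an animal or culture of its own, so each p-value rests on variation among libraries and this may be technical. The 5 KO columns of the table carry the heading SI, a term that no label explains, and they were assigned to KO by elimination.

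Cells prepare for division in an ordered series. D-type and E-type cyclins with their kinases release E2F transcription factors from pocket proteins of the retinoblastoma family. E2F then drives the genes for the MCM helicase, its loaders and the enzymes of nucleotide supply. Cyclin A and cyclin B with the kinase Cdk1 act later, together with the genes of chromosome condensation, spindle assembly and the spindle checkpoint. Promoters of this later wave are known to be bound by NF-Y at CCAAT boxes and by the DREAM and MuvB complexes at a short element called CHR. Most tissue macrophages are quiescent but can divide in response to growth factors, and LPS is known to arrest macrophages that are dividing.

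The promoters were searched for these elements, and 7 of them are shown because they belong to genes whose values are compared below. RefSeq promoter windows (GRCm38.p6) were found for 29 of the 36 genes, and the 250 bases before each start were searched on both strands. The E2F words were TTTCCCGC, TTTCGCGC, TTTGCCGC and TTTGGCGC, the CHR word was TTTGAA and the NF-Y word was CCAAT. Words of different kinds did not overlap in the members, and E2F words overlapped each other in 2 genes. Each line below gives the 120 bases that end just before the start, 5′ to 3′ on the strand of the gene, and capitals mark the words. The kinds of word named on a line are those in the printed bases only. Words farther upstream in the searched window are not shown, among them a CHR word of Ccnb2, a CCAAT word of Mcm2 and an E2F word of Cdk1.
Mcm6, E2F and CCAAT words, chr1:128359706-128359825, minus strand: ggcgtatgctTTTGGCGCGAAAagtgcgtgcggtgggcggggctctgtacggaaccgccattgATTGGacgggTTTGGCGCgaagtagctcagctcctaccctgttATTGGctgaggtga
Mcm2, CHR word, chr6:88898781-88898900, minus strand: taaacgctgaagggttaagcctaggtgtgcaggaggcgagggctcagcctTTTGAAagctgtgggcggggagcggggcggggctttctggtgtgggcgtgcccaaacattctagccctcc
Cdk1, CHR and CCAAT words, chr10:69352913-69353032, minus strand: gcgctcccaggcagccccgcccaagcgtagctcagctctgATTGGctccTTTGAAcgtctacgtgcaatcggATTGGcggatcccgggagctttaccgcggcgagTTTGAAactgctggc
Top2a, CHR and CCAAT words, chr11:99024190-99024309, minus strand: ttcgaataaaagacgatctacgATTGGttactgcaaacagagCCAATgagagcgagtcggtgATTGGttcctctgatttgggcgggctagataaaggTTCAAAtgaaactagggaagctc
Ccnb2, CCAAT words, chr9:70421555-70421674, minus strand: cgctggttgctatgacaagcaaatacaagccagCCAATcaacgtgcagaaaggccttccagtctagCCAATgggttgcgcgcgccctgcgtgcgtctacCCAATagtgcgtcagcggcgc
Kif11, CHR and CCAAT words, chr19:37376262-37376381, plus strand: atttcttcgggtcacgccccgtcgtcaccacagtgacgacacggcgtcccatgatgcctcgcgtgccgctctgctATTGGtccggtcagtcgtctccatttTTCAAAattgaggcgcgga
Bub1b, CCAAT word, chr2:118598091-118598210, plus strand: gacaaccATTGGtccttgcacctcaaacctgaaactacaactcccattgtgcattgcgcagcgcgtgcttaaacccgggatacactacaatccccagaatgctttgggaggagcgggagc

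CCAAT was the most frequent of the searched words in the mitotic promoters. It was held by 13 of 14 mitotic genes with a window and by 9 of 14 replication genes, against 37.5% of all 27025 genes with a window. The CHR word was held by 6 of 14 mitotic genes and 2 of 14 replication genes, against 18.3% of all genes. E2F words were held by 4 of 14 replication genes (Mcm5, Mcm6, Mcm7 and Cdc6) and by 1 of 14 mitotic genes (Cdk1), against 2.16% of all genes. These are letter matches in a fixed window and not measurements of binding. The positions above are those of GRCm38.p6, whereas positions given below are as the deposited table lists them, a table whose positions matched GRCm38 for 1430 of 52073 shared identifiers.

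The libraries held 19319512 to 22766319 counts, and the members had between 35 and 2970 counts per library. Over all genes, 4200 of 14436 tested genes differed between the genotypes (edgeR quasi-likelihood test, adjusted p under 0.05), 2036 higher and 2164 lower in KO, with a median log2 fold change of 0.01. Scaling by library totals in place of the TMM factors moved that median to 0.12 and gave 4231 higher and 1361 lower. Jaml had 0 to 2 counts per library in both genotypes and cannot check the labels. Macrophage genes were abundant in both genotypes, with Lyz2 at 18210 and 17530 CPM (counts scaled by library size and TMM factor) and Cd68 at 2473 and 2616 CPM in WT and KO. The T and NK cell list summed to at most 0.299 CPM in any library, with Cd3e and Ncr1 at 0 throughout. Summed mast cell markers were at 16.0 to 23.0 CPM in WT and 8.22 to 10.1 CPM in KO, neutrophil and progenitor markers at 16.2 to 20.3 and 24.2 to 28.3 CPM, B cell markers at 1.64 to 3.91 and 0.690 to 1.57 CPM, and endothelial markers at 48.1 to 56.0 and 37.8 to 46.4 CPM. The part of these cells in the values below was not tested. On the component that held 17.7% of the variance, KO 1 and KO 3 lay at -27.55 and -37.59 and the other KO libraries between 5.66 and 16.62, so these 2 libraries stood apart over all genes. On the component that held 39.1%, KO 1 and KO 3 lay at 12.58 and 5.8. There they stood between the WT libraries (-29.26 to -20.95) and the other KO libraries (29.1 to 40.79).

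Among the 19 replication genes, E2f1, E2f2 and Mcm2 rose, Pcna, Rrm2 and Ccnd2 fell and 13 did not pass the test. That is 6 of 19 called, where 29.1% of all tested genes were called, so the share is close to the background. Their median log2 fold change was -0.02. Among the 16 mitotic genes, 5 fell (Ccna2, Ccnb2, Top2a, Bub1 and Cenpe), 1 rose (Bub1b) and 10 did not pass, with a median of -0.36. KO and WT values did not overlap for 6 replication and 2 mitotic genes, against 23.3% of all tested genes (10.9% above and 12.4% below). The background of calls was 15.0% of tested genes called lower and 14.1% called higher. The count of mitotic genes that fell was not firm. It was 1 without WT 1, WT 2, WT 4, KO 2, KO 4 or KO 5, 2 without WT 3 or WT 5, and 6 without KO 1 or KO 3. It was 1 with library totals and 10 without both KO 1 and KO 3, the KO libraries with the highest values in most mitotic genes. The median log2 fold change of the mitotic genes moved less than this count. It lay between -0.46 and -0.24 when 1 library at a time was left out, and at -0.24 with library totals. The difference between the medians of the 2 sets was not tested, since a list is described here and not tested.

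**Figure D1:**
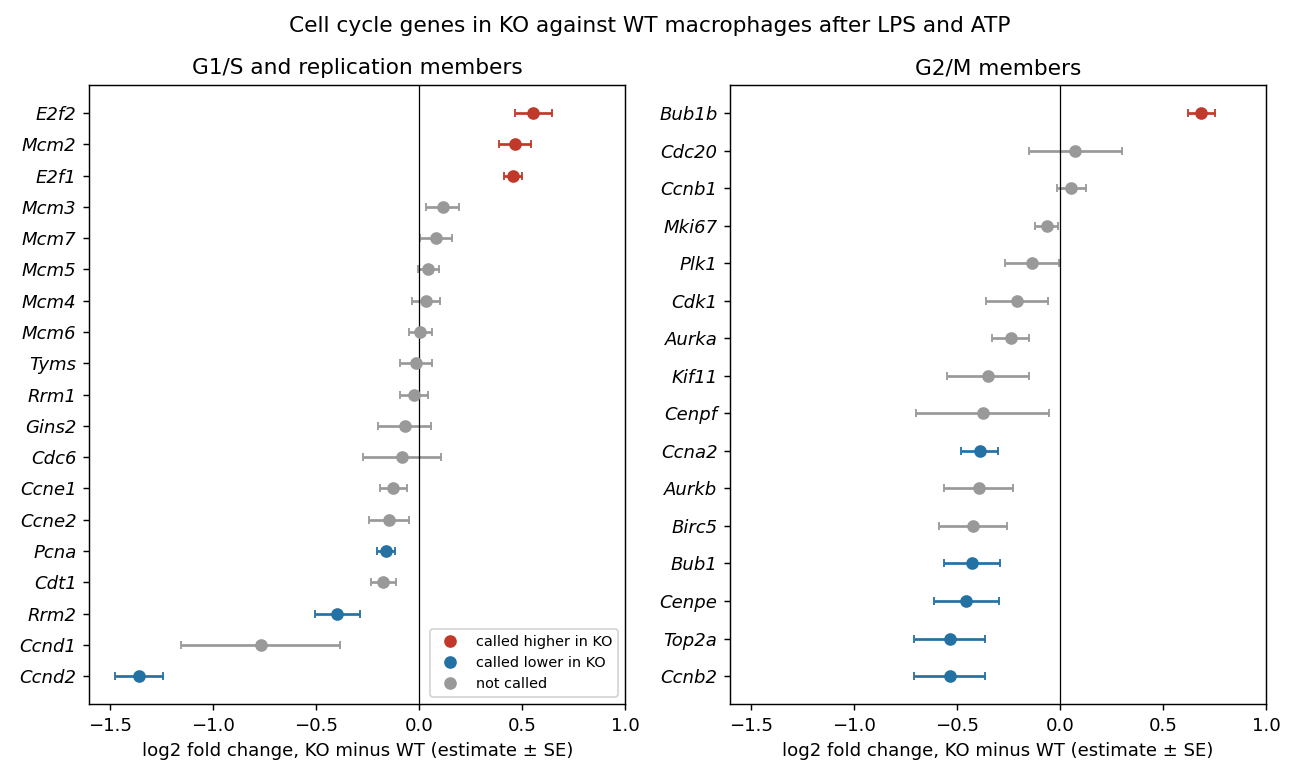
Log2 fold change of each gene, KO minus WT, on the horizontal axis (estimate ± SE, 5 libraries per genotype), with replication genes on the left and mitotic genes on the right. Red and blue points mark genes called higher or lower in KO. In the left panel Ccnd2 lies farthest out at -1.36, and in the right panel Bub1b at 0.69 stands to the right of the other genes.

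The D-type cyclins, which pass growth factor signals to Cdk4 and Cdk6, held the largest change among the members. Ccnd2 (chromosome 6, 127102125 to 127129156) had 40.5, 37.4, 33.5, 39.7 and 39.5 CPM in WT 1 to WT 5 and 16.2, 13.4, 17.8, 16.1 and 10.8 CPM in KO 1 to KO 5. Every KO library lay below every WT library, and Ccnd2 fell 2.57-fold (log2 fold change -1.36 ± 0.12, adjusted p = 4.96e-06).

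Ccnd1, another D-type cyclin, had 6.81, 9.37, 5.20, 7.22 and 5.18 CPM in WT and 4.93, 2.37, 8.46, 2.16 and 1.76 CPM in KO. The groups overlapped because KO 3 reached the WT range, and Ccnd1 did not pass (log2 fold change -0.77 ± 0.39, adjusted p = 0.167). Ccnd1 overlaps LTO1 in the table, which had 0.01 ± 0.08 (adjusted p = 0.945). The coefficient of variation of Ccnd1 (CV, the SD as a share of the mean) in KO was 71.6%, the highest of all members. Without KO 3, the highest KO library for Ccnd1, the gene was called lower, at -1.26 (edgeR adjusted p = 0.00919). That lower estimate follows from leaving out the highest KO value, and no conclusion is drawn from this call. The D-type cyclin Ccnd3 did not pass (-0.06 ± 0.31, adjusted p = 0.922). It and the kinase genes Cdk2, Cdk4 and Cdk6 belong to a list of 12 G1 cyclins, kinases and inhibitors. In that list 1 gene was called, Cdkn1c (below), where 29.1% of all tested genes were called.

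The activator E2F genes E2f1 and E2f2 rose. E2f1 (chromosome 2, 154401327 to 154411812) had 39.8, 39.7, 43.0, 40.6 and 40.1 CPM in WT and 51.0, 58.2, 56.5, 55.3 and 57.5 CPM in KO, so the groups did not overlap. It rose 1.37-fold (log2 fold change 0.46 ± 0.05, adjusted p = 1.53e-05). E2f2 had 6.91, 6.48, 7.88, 8.91 and 7.71 CPM in WT and 10.9, 12.3, 10.2, 11.6 and 10.7 CPM in KO, again without overlap, and rose 1.47-fold (0.56 ± 0.09, adjusted p = 0.000695). KO 1 and KO 3 were not set apart from the other KO libraries in either gene. E2f3, also an activator but not among the 36 genes, did not pass (-0.10 ± 0.05, adjusted p = 0.157).

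Of the MCM genes, which encode the 6 subunits of the replicative helicase, 1 of 6 changed. Mcm2 had 18.7, 18.2, 17.9, 17.5 and 17.1 CPM in WT and 21.4, 23.4, 29.2, 23.7 and 25.7 CPM in KO, with KO 3 the highest and no overlap. It rose 1.38-fold (0.47 ± 0.08, adjusted p = 0.000741). Mcm3, Mcm4, Mcm5, Mcm6 and Mcm7 had log2 fold changes between 0.01 and 0.11, and none passed (adjusted p 0.315 to 0.949). Mcm6 with its E2F words shown above went from 43.5 ± 2.72 to 43.7 ± 2.53 CPM (mean ± SD, n = 5 each). With library totals Mcm3 and Mcm5 were called higher as well. Mcm7 overlaps Cops6 and Ap4m1 in the table, and reads of overlapping genes cannot be separated without a stated strand setting.

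The loading and initiation factors did not pass. Cdc6 and Cdt1, which load the helicase on origins, had log2 fold changes of -0.08 ± 0.19 and -0.17 ± 0.06 (adjusted p = 0.786 and 0.0535). All KO values of Cdt1, 15.8 to 18.1 CPM, lay below all WT values, 18.4 to 21.8 CPM. Gins2, a subunit that activates the helicase, and the E-type cyclins Ccne1 and Ccne2 had -0.07 ± 0.13, -0.12 ± 0.07 and -0.15 ± 0.10. Gins2 overlaps Gse1 and Ccne2 overlaps Ints8.

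Pcna, the sliding clamp of the replicative polymerases, had the highest level per gene length of all members, at 23.8 ± 0.486 FPKM in WT (the authors' FPKM, mean ± SD, n = 5). Its values were 86.0, 85.03, 87.5, 89.6 and 87.1 CPM in WT and 80.2, 76.4, 71.3, 79.9 and 81.3 CPM in KO. The groups did not overlap, and Pcna fell by a small step, 1.12-fold (log2 fold change -0.16 ± 0.04, adjusted p = 0.0124). With library totals the value was -0.05 and was not called. The processed copy Pcna-ps2 had 7143 counts over all libraries against 16910 for Pcna, so reads could have been divided between them. Pcna-ps2 itself had a log2 fold change of -0.13 ± 0.06 (adjusted p = 0.132).

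Ribonucleotide reductase makes deoxyribonucleotides, and its 2 subunits in this set behaved differently. Rrm2, the subunit whose level limits the enzyme, had 22.5, 18.8, 22.0, 23.8 and 20.7 CPM in WT and 19.7, 13.1, 18.4, 14.8 and 15.9 CPM in KO. KO 1 was above the lowest WT library, and Rrm2 fell 1.32-fold (-0.40 ± 0.11, adjusted p = 0.0165). Rrm2 lost its call when WT 1 or WT 4 was left out, when library totals were used and when the filter was dropped (adjusted p up to 0.0865). Rrm1, the larger subunit, and Tyms, which makes thymidylate, had -0.02 ± 0.07 and -0.02 ± 0.08 and did not pass. No test compared Rrm1 with Rrm2.

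Bub1b was the mitotic gene that rose. It encodes BubR1, a kinase-like protein of the spindle checkpoint (chromosome 2, 118428692 to 118472072). Bub1b had 17.6, 17.5, 17.6, 14.5 and 17.4 CPM in WT and 26.0, 26.2, 28.6, 26.1 and 29.1 CPM in KO. The groups did not overlap, and Bub1b rose 1.61-fold (log2 fold change 0.69 ± 0.07, adjusted p = 1.08e-05). The call held under all 20 alternatives, with log2 fold changes of 0.65 to 0.80. Its CV in KO was 5.53%, the lowest of the 16 mitotic genes, and no protein-coding gene of the table overlaps it.

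Ccna2, which encodes cyclin A2 of S phase and G2, was the mitotic gene that fell with no overlap (chromosome 3, 36619014 to 36626299). It had 10.2, 11.0, 10.8, 10.2 and 10.5 CPM in WT and 8.80, 7.46, 9.53, 7.12 and 7.16 CPM in KO. Ccna2 fell 1.31-fold (-0.39 ± 0.09, adjusted p = 0.00588), and the call held under all 20 alternatives (adjusted p up to 0.0482). KO 1 and KO 3 were nearest to WT. The overlapping gene Exosc9 had -0.03 ± 0.05 (adjusted p = 0.725).

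In Top2a, Ccnb2 and Cenpe, KO 1 and KO 3 were the highest KO libraries. Top2a, the topoisomerase that untangles sister chromatids, had 36.1, 47.4, 36.5, 40.7 and 33.7 CPM in WT and 32.3, 19.7, 37.7, 22.1 and 22.4 CPM in KO. KO 3 was above 3 WT libraries, KO 1 lay just below the lowest WT library, and KO 2, KO 4 and KO 5 lay farther below. Top2a fell 1.45-fold (-0.53 ± 0.17, adjusted p = 0.0367).

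Ccnb2, a B-type cyclin that activates Cdk1, had 4.25, 4.01, 3.43, 4.86 and 3.93 CPM in WT and 3.55, 2.03, 3.63, 2.50 and 2.42 CPM in KO, and fell 1.45-fold (-0.54 ± 0.17, adjusted p = 0.0361). Cenpe, a kinetochore motor, had 8.89, 12.7, 8.79, 9.17 and 10.1 CPM in WT and 9.22, 5.91, 8.86, 5.99 and 6.15 CPM in KO (-0.46 ± 0.16, adjusted p = 0.0484). Bub1, a checkpoint kinase at kinetochores, had 7.45, 6.48, 5.91, 6.71 and 5.18 CPM in WT and 4.52, 3.97, 6.18, 4.17 and 4.74 CPM in KO (-0.43 ± 0.14, adjusted p = 0.0346). In Bub1 KO 3 stood alone inside the WT range. Top2a, Ccnb2, Cenpe and Bub1 each lost the call in 11 to 13 of the 20 alternatives, listed with the limits at the end.

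**Figure D2:**
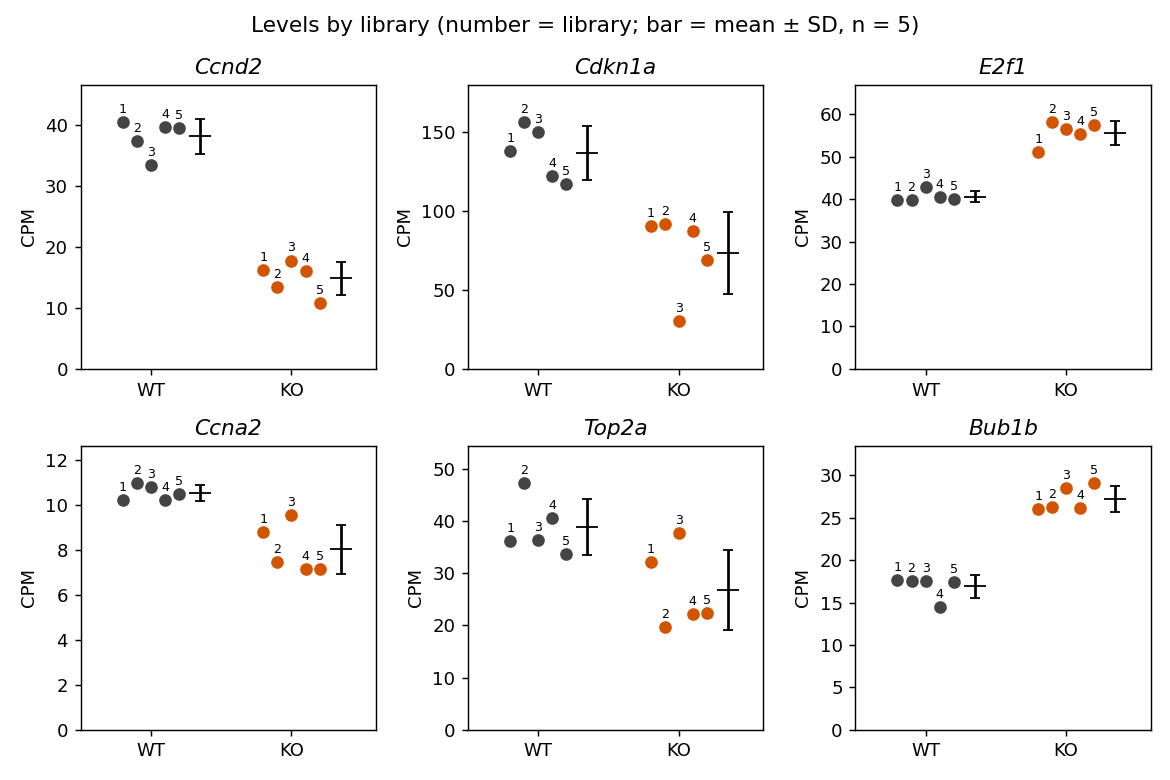
CPM of 6 members in each library, with WT in grey and KO in orange; the number above a point names the library and the bar beside it is the mean ± SD (n = 5). Ccnd2, Cdkn1a and Ccna2 are lower and E2f1 and Bub1b higher in every KO library, whereas Top2a lies at 32.3 CPM in KO 1, just below the lowest WT point, and at 37.7 CPM in KO 3, among the WT points.

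Several mitotic genes did not pass although KO 2, KO 4 and KO 5 were low. Cdk1, the kinase that starts mitosis, had 7.80, 9.47, 8.69, 8.76 and 8.36 CPM in WT and 9.17, 6.17, 9.85, 6.04 and 5.998 CPM in KO (-0.21 ± 0.15, adjusted p = 0.343). KO 3 was above every WT library and KO 2, KO 4 and KO 5 were below every WT library. Cenpf, a kinetochore protein, had 7.11, 8.56, 6.11, 7.22 and 4.38 CPM in WT and 6.497, 2.89, 9.53, 3.09 and 3.63 CPM in KO (-0.38 ± 0.32, adjusted p = 0.432). Kif11, a motor that separates spindle poles, had 5.38, 8.08, 5.51, 6.76 and 5.82 CPM in WT and 5.81, 3.84, 7.34, 3.93 and 3.78 CPM in KO (-0.35 ± 0.20, adjusted p = 0.229). Both repeated the order seen in Cdk1, with KO 3 highest among the KO libraries and KO 1 next.

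The Aurora kinase gene Aurkb and Birc5, which encodes survivin of the same chromosomal passenger complex, had -0.39 ± 0.17 and -0.42 ± 0.16 (adjusted p = 0.103 and 0.0777). Plk1, a kinase of mitotic entry, had -0.14 ± 0.13, and Aurka, the Aurora kinase of spindle poles, -0.24 ± 0.09 (adjusted p = 0.493 and 0.0679). Cdc20, an activator of the anaphase-promoting complex, had 0.07 ± 0.23 (adjusted p = 0.847). Its KO values were 4.61, 2.59, 5.33, 2.85 and 2.82 CPM, high in KO 1 and KO 3, and it overlaps Elovl1 (0.23 ± 0.11, adjusted p = 0.155). Without KO 1 and KO 3, Cdk1, Cenpf, Kif11, Aurkb and Birc5 were called lower, at -0.51, -1.06, -0.71, -0.63 and -0.66. KO 1 and KO 3 were the highest KO libraries in each of these genes and were left out with their values known. The lower estimates therefore follow from the choice of libraries, and no conclusion is drawn from these calls.

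Mki67 and Ccnb1 did not share the drop in KO 2, KO 4 and KO 5. Mki67, the Ki-67 proliferation marker, had the highest level of the mitotic genes per gene length (9.51 ± 0.545 FPKM in WT). It had 92.8, 107.9, 103.0, 105.6 and 103.1 CPM in WT and 91.7, 97.2, 100.3, 93.4 and 107.2 CPM in KO, with overlap (-0.07 ± 0.05, adjusted p = 0.413). Ccnb1, the main cyclin B, had 7.68 to 8.76 CPM in WT and 8.05 to 9.85 CPM in KO (0.06 ± 0.07, adjusted p = 0.613), and the copy Ccnb1-ps had 989 counts against 1786 for Ccnb1.

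The KO libraries lay farther apart in the mitotic genes than in the replication genes. The median level of the 16 mitotic genes relative to the WT mean was -0.09 and -0.04 on the log2 scale in KO 1 and KO 3, against -0.52, -0.56 and -0.54 in KO 2, KO 4 and KO 5. The 5 WT libraries lay between -0.12 and 0.07. The same median over the 19 replication genes ran from -0.10 to 0.09 in KO and from -0.02 to 0.01 in WT.

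KO 1 and KO 3 were the 2 highest KO libraries in 11 of 16 mitotic genes and in 6 of 19 replication genes (Rrm1, Rrm2, Tyms, Gins2, Ccnd1 and Ccnd2), against 12.8% of all tested genes. As the 2 lowest KO libraries they stood in 0 mitotic and 0 replication genes, and in 2649 of 14436 tested genes. The position of these 2 libraries apart from the other KO libraries is thus not particular to the mitotic genes. The CV was larger in KO than in WT for 15 of 16 mitotic genes, the exception being Bub1b, and for 11 of 19 replication genes, against 56.3% of all tested genes. Median CVs of the mitotic genes were 13.1% in WT and 21.1% in KO, and of the replication genes 6.80% and 8.50%. In WT, WT 2 was the highest library in 8 of 16 mitotic genes, against 20.8% of all tested genes. These counts describe libraries and genes that were compared after their values were known.

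**Figure D3:**
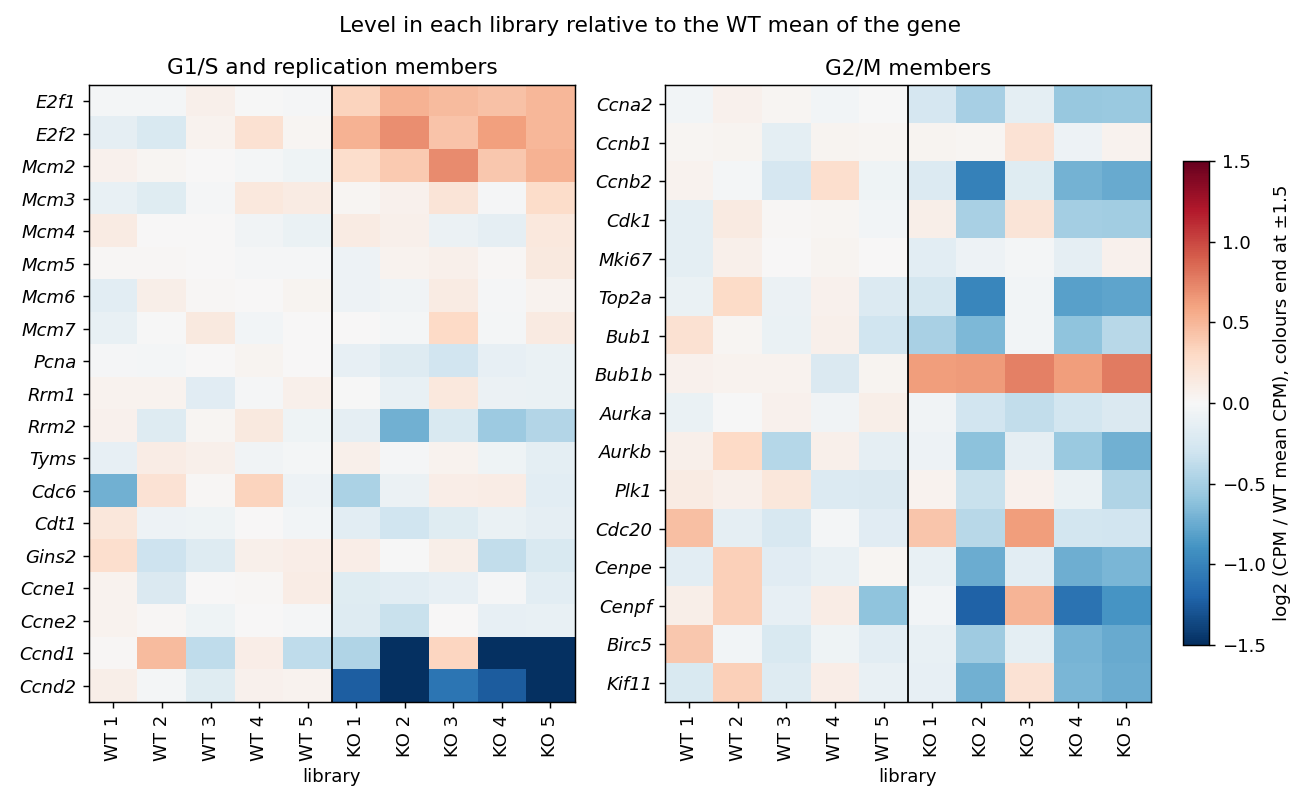
Each cell is the log2 ratio of the CPM in a library (columns) to the WT mean of the gene (rows), with the 5 WT libraries left of the line and the 5 KO libraries right of it; colours end at ±1.5. Most mitotic genes are blue in KO 2, KO 4 and KO 5 and near white in KO 1 and KO 3, while Bub1b is red and Ccnd2 blue in all KO libraries.

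Msln and Krt19, markers of another cell type named after their values were seen, took the same order among the KO libraries. Msln, a marker of mesothelium, had 8.99 and 11.4 CPM in KO 1 and KO 3 and 1.08, 0.442 and 0.302 CPM in KO 2, KO 4 and KO 5, with 5.03 to 9.74 CPM in WT. Krt19, a keratin of mesothelium and other epithelia, had 1.39 to 3.32 CPM in WT, 2.30 CPM in KO 1, 3.18 CPM in KO 3 and 0.196 to 0.259 CPM elsewhere in KO. WT 2 was the highest WT library for both. The mesothelial marker Upk3b did not follow this order, with 1.18 to 1.72 CPM in WT. It had 0.184 CPM in KO 1, 0.179 CPM in KO 3 and 0.0982 to 0.345 CPM elsewhere in KO. In the KO libraries 3 counts correspond to 0.132 to 0.155 CPM of the library total. The KO values of Upk3b, and those of Krt19 in KO 2, KO 4 and KO 5, are at or near this level. The order of the KO libraries in Upk3b is therefore uncertain.

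The whole list of 8 fibroblast and mesothelium markers summed to 573 to 636 CPM in WT, led by Col1a1 and Col1a2. In KO 1 to KO 5 the sums were 741, 672, 767, 683 and 596 CPM. No KO sum lay below the WT range, unlike Msln and Krt19 in KO 2, KO 4 and KO 5. Of its members 3 rose, 2 fell and 3 did not pass, and none was at 0 in all libraries. Only Msln, Krt19 and Upk3b are given here by library. In these bulk samples, fewer cells of a type and less RNA per cell cannot be told apart, and the part of these cells in the mitotic values was not tested.

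**Figure D4:**
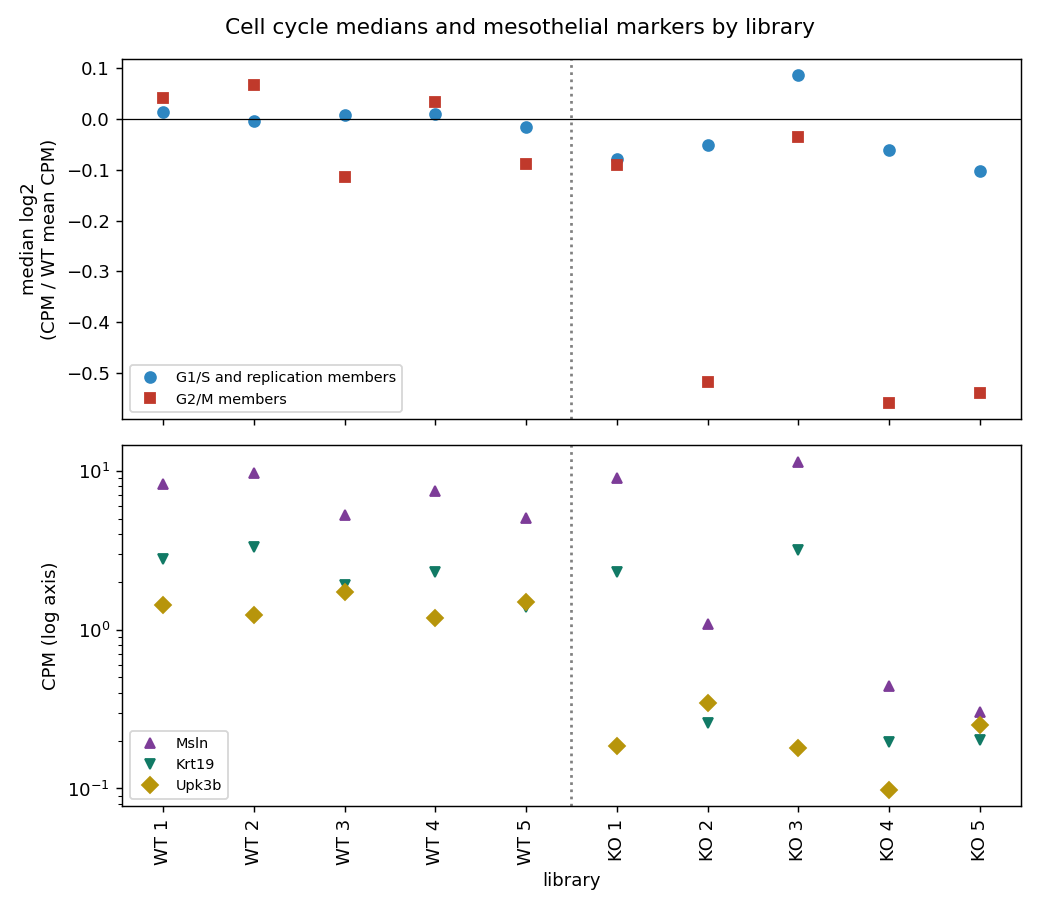
The upper panel shows, for each library, the median log2 ratio to the WT mean over the 19 replication genes (blue circles) and the 16 mitotic genes (red squares); the lower panel shows CPM of 3 mesothelial markers on a log axis. KO 2, KO 4 and KO 5 are low in the mitotic median (-0.56 to -0.52) and in Msln and Krt19. Upk3b is low in all KO libraries. The 3 markers were named after their values were seen, and the sum of the whole list of 8 markers was not below the WT range in any KO library.

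Cdkn1a encodes p21, an inhibitor of cyclin-dependent kinases induced by p53 and by inflammatory signals. It lies on chromosome 17 at 29309950 to 29319701 and was second to Pcna in level per gene length (19.9 ± 2.55 FPKM in WT). Cdkn1a had 138.4, 156.6, 150.0, 122.5 and 117.2 CPM in WT and 90.9, 91.6, 30.4, 87.4 and 68.8 CPM in KO. The groups did not overlap, KO 3 was the lowest library, and Cdkn1a fell 1.86-fold (log2 fold change -0.89 ± 0.24, adjusted p = 0.016). The call held under all 20 alternatives, with values of -1.14 to -0.69.

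Other CDK inhibitors were tested beside it. Cdkn1c, which encodes p57, had 7.75, 6.05, 7.27, 8.04 and 6.27 CPM in WT and 2.40, 2.24, 1.34, 1.96 and 1.76 CPM in KO, and fell 3.63-fold (-1.86 ± 0.15, adjusted p = 3.65e-06). KO 3 was again the lowest. Cdkn1b, which encodes p27, did not pass (-0.15 ± 0.18, adjusted p = 0.584), with WT values from 8.79 to 18.8 CPM and KO values from 11.2 to 12.9 CPM.

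Of 17 further p53 target genes tested, 3 rose and 2 fell, a share called close to the 29.1% of all tested genes. Mdm2, the ligase that degrades p53, fell from 158.9 ± 6.002 to 115.2 ± 4.55 CPM (mean ± SD, n = 5 each; -0.46 ± 0.04). The stress sensor gene Sesn2 fell by 0.36 ± 0.05 on the log2 scale, whereas Sesn1 rose by 0.69 ± 0.08 and Phlda3 by 0.82 ± 0.11. The remaining call was Gadd45a, higher by 0.18 ± 0.06 and named after its value was seen. Ccng1, a steady p53 target, had -0.05 ± 0.05 (adjusted p = 0.521).

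The pocket proteins and other E2F family genes, which act between the cyclins and the members above, gave 2 higher and 3 lower of 15 tested. That share is close to the 29.1% of all tested genes that were called. Rbl1, which encodes the pocket protein p107, had 38.5, 38.5, 36.6, 39.8 and 37.9 CPM in WT and 23.8, 24.0, 21.4, 23.2 and 24.9 CPM in KO. It fell 1.63-fold (-0.71 ± 0.05, adjusted p = 9.95e-07), and KO 1 and KO 3 were not the highest KO libraries. E2f5, a repressor E2F, fell by 0.43 ± 0.05 and Lin37, a MuvB subunit, by 0.29 ± 0.06. E2f8, an atypical repressor, rose by 0.36 ± 0.07. Rbl2, the pocket protein p130, was the other gene that rose, by 0.25 ± 0.06, and was named after its value was seen.

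Further replication genes were read against the 14.1% of all tested genes called higher and 15.0% called lower. Of 20 genes of origin licensing and firing 4 rose and 1 fell, a share called close to the 29.1% of all tested genes, and the median of their log2 fold changes was 0.05. Timeless, a fork protection gene, fell by 0.70 ± 0.11. The origin recognition genes Orc2 and Orc5 rose by 0.24 ± 0.04 and 0.23 ± 0.05, and Gmnn, which encodes the licensing inhibitor geminin, rose by 0.38 ± 0.10. Wdhd1, a replisome gene named after its value was seen, rose by 0.36 ± 0.12. Of 24 genes of polymerases, clamp loading and chromatin assembly 3 rose and 1 fell, with a median of 0.07. Dna2, a nuclease of DNA ends, rose by 0.38 ± 0.06, Dnmt1, the maintenance methyltransferase, by 0.23 ± 0.06 and Rpa1 of the single-strand binding complex by 0.20 ± 0.07. The clamp loader gene Rfc3 fell by 0.24 ± 0.08. The calls of Rpa1 and Rfc3 were lost in 10 and 13 of 20 alternatives.

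Of 12 genes of nucleotide supply tested, 3 rose and 2 fell, where 29.1% of all tested genes were called in either direction. Samhd1, which breaks down deoxyribonucleotides in non-dividing myeloid cells and is also interferon-induced, went from 457.7 ± 25.5 to 206.1 ± 19.9 CPM (mean ± SD, n = 5 each), 2.22-fold lower (-1.15 ± 0.07, adjusted p = 3.62e-07). Dck, the deoxycytidine salvage kinase, went from 61.9 ± 1.62 to 34.4 ± 2.38 CPM, 1.799-fold lower. The de novo pyrimidine genes Cad and Umps rose by 0.41 ± 0.08 and 0.26 ± 0.05. Samhd1, Dck, Cad and Umps kept their calls in all 20 alternatives. The remaining gene that rose was Dctpp1, a nucleotide hydrolase, by 0.39 ± 0.09, named after its value was seen.

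Of 36 further genes of spindle, kinetochore and cytokinesis 4 fell and 32 did not pass, where 15.0% of all tested genes were called lower, with a median of -0.20. Tpx2, which targets Aurora A to the spindle, had 17.0, 15.3, 13.3, 14.95 and 14.8 CPM in WT and 11.8, 8.63, 12.8, 7.81 and 8.72 CPM in KO. It fell by 0.60 ± 0.13 with no overlap, and again KO 1 and KO 3 were the highest KO libraries. The kinetochore genes Ndc80 and Knl1 fell by 0.58 ± 0.14 and 0.58 ± 0.19 and the checkpoint gene Mad2l1 by 0.26 ± 0.09. Knl1 and Mad2l1 lost their calls in 11 and 13 of 20 alternatives.

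Of 12 condensins and cohesin regulators 1 fell and 11 did not pass, beside the same 15.0%. The gene that fell was Pttg1, which encodes securin, the inhibitor of separase. Pttg1 had 27.9, 27.0, 29.3, 29.8 and 32.8 CPM in WT and 17.6, 10.4, 12.4, 18.1 and 14.5 CPM in KO, without the order of KO 1 and KO 3 seen in Top2a. It fell 2.02-fold (-1.01 ± 0.14, adjusted p = 0.00016). Of 17 genes of mitotic entry and exit 1 rose and 2 fell, where 29.1% of all tested genes were called in either direction. Fzr1, an activator of the anaphase-promoting complex, fell by 0.24 ± 0.06 and Mybl2, a transcription factor of the late wave, by 0.53 ± 0.14. Wee1, the kinase that holds Cdk1 inactive, rose by 0.28 ± 0.08.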

How the data were processed

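Whole-number counts per gene and library were deposited by the authors, per the file headers, together with FPKM values (per gene length and library total, per the file headers). The WT FPKM served to compare levels between genes, and the 5 FPKM columns of KO were not used. CASAVA 1.8 and TopHat2 2.0.6 are named in the submitters' processing notes, with the builds mm10 and GRCm39. Counter, annotation and strand setting: not given in the sources used.

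WT columns match the labels by name. Numbers of KO libraries are those of the SI columns and are tied to no sample. Counts were tested with edgeR 4.0.16 in R 4.3.3 (quasi-likelihood F test, TMM, filterByExpr with a minimum count of 10, KO minus WT), and p-values were adjusted over 14436 genes (Benjamini-Hochberg). The SE is the estimate over the square root of F. The procedure was tested on simulated data. Libraries were not duplicates (chi-square per gene 9.13 to 17.5 within genotypes).

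Members and lists were chosen with earlier results of these data known. Named are all members and, per further list, up to 4 called genes with the smallest p. Cdkn1b, Mdm2, Ccng1, Jaml, Lyz2 and the leading markers are named as well. Genes marked as named after their values were seen stand outside this rule. Alternatives were DESeq2 size factors, library totals, 2 filters, the replicate block, robust edgeR, DESeq2 1.42.0, limma-voom (limma 3.58.1) and leaving out libraries. Part of the macrophage growth list is not reported here.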

Additional observations from a re-analysis of the deposited data

Results flagged for a closer look

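In 5 of the 72 groups of 5 libraries (36 genes in 2 genotypes) a library lay far from the other 4 relative to the range, where chance gives about 1 in 20. All 5 were WT libraries. E2f1 was at 43.0 CPM in WT 3 against 39.7 to 40.6 CPM in the other WT libraries, and Ccnb1 at 7.68 CPM in WT 3 against 8.66 to 8.76 CPM. Bub1b was at 14.5 CPM in WT 4 against 17.4 to 17.6 CPM. Cdc20 was at 4.74 CPM in WT 1 against 2.93 to 3.38 CPM, and Birc5 at 6.62 CPM in WT 1 against 4.29 to 4.87 CPM. E2f1 and Bub1b kept their calls without the library concerned.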

How the results depend on the processing

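Of the values of the 36 genes over 20 alternatives, 653 stayed on the same side of the threshold, 54 lost and 13 gained a call. No called gene turned its sign, whereas Mcm4, Mcm6, Rrm1, Tyms, Cdc6, Gins2, Mki67 and Cdc20, none of them called, had estimates of either sign. E2f1, E2f2, Mcm2, Ccnd2, Ccna2, Bub1b and Cdkn1a kept their calls in all 20. With library totals 4231 genes were higher and 1361 lower, 5 replication genes were higher and 1 lower with a median of 0.093, and 2 mitotic genes were called, 1 of them lower. The mitotic genes called, and those called lower, were 2 and 1 without a low-count filter and also without KO 1 and KO 2. They were 11 and 10 without KO 1 and KO 3, the KO libraries with the highest values in most mitotic genes. Leaving out 1 library at a time gave 2 to 7 mitotic genes called and 1 to 6 called lower, and 5 to 7 replication genes. Top2a and Cenpe lost their calls in 13, Bub1 in 12 and Ccnb2 in 11 alternatives (adjusted p up to 0.109, 0.14, 0.173 and 0.109). Among the further genes named, Gmnn, Fzr1 and Ndc80 each lost a call in 1 alternative and Mybl2 and Wee1 in 2. With the replicate block, 3 mitotic genes were called and 2 of them lower. Correlations of same-numbered libraries were -0.11 to 0.18, with 2 of 5 numbers matching best with their own. No strong pairing by number was seen, and such a check cannot exclude a weak one. The KO numbers come from the column names. The cause of these shifts was not tested. Mitotic genes such as Cdc20 and Ccnb2 rested on few counts per library, which limits their precision.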

Other observations

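Receptor genes for macrophage growth factors were looked at beside the cell cycle genes. Csf1r, the receptor of the main macrophage growth factor, had 828.9, 778.1, 861.8, 811.7 and 791.9 CPM in WT and 849.6, 921.4, 905.9, 946.5 and 933.3 CPM in KO. The groups overlapped, and Csf1r rose by 0.16 ± 0.04 on the log2 scale (edgeR adjusted p = 0.00857). Csf2ra, a receptor subunit for GM-CSF, rose by 0.24 ± 0.06 (edgeR adjusted p = 0.00844). Csf2rb, another subunit of that receptor, did not pass (-0.05 ± 0.13, adjusted p = 0.811). Csf1r and Csf2ra kept their calls in the 20 alternatives.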
